A study of Rattus norvegicus with 36 samples.

Results

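The 4 members described here are rno-miR-486-5p, rno-miR-451-5p, rno-miR-144-3p and rno-miR-144-5p, the small RNAs for which red cells and their precursors are best known. They were found by name, as 4 of the 947 entries of the count table, of which 459 carry a rat miRNA name. The table classes miR-486-5p among entries taken over from other species, although it carries a rat name. The samples came from female WAG/RijCmcr rats of 9 to 10 weeks that received a single dose of 15 Gy of 320 kVp X-rays to the whole thorax, or from age-matched rats of the same strain that were not irradiated (0 Gy). Small RNA was sequenced from whole blood drawn by cardiac puncture and from the right superior lobe of the lung, with 3 libraries for each of 6 groups in either tissue, namely 15 Gy at 1, 2, 3 and 4 weeks and 0 Gy at 1 and 4 weeks. Per the study's methods each library pooled RNA of 3 rats, so the spread between libraries is smaller than that between single rats. The heart and a small part of the liver lay in the field together with the lung. P-values measure only the spread between these libraries.

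Mature red cells of mammals have no nucleus, yet they carry a large store of miRNAs made while their precursors still transcribed their genome. miR-144 and miR-451 are cut from neighbouring hairpins of one primary transcript that the erythroid factor GATA1 switches on, and miR-451 is trimmed by the slicer activity of an Argonaute protein instead of by Dicer, so its precursor yields almost entirely one strand. miR-486 lies within the gene of the red cell skeleton protein ankyrin and is also made in skeletal and heart muscle. In a whole organ these miRNAs are often read as a sign of the blood left in its vessels.

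The mature sequences of 3 of the 4 members were matched by name in RefSeq (build GRCr8). They are shown because the miRNAs of this cluster are compared with one another throughout, and capitals mark the seed, bases 2 to 8 of each, which pairs with target transcripts.
rno-miR-451-5p: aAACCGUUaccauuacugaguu
rno-miR-144-3p: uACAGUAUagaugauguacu
rno-miR-144-5p: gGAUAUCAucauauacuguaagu
The 3 seeds differ from one another, and each was shared by 0 of the other mature sequences among the 693 in the RefSeq table. All 3 are poor in G and C, at 36.4% for miR-451-5p, 30% for miR-144-3p and 30.4% for miR-144-5p, against a median of 45.5% for the known miRNAs tested in blood that have a sequence.

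Both hairpins lie on the plus strand of chromosome 10 of GRCr8, Mir144 at chr10:63459397-63459479 and Mir451a at chr10:63459569-63459640, with 89 bases between them. They are printed to show which stretch each counted RNA comes from. Capitals mark both arms of Mir144, first miR-144-5p and then miR-144-3p, and in Mir451a they mark miR-451-5p, which runs from the stem into the loop.
Mir144: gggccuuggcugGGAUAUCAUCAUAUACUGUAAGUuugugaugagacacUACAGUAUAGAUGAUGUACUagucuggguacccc
Mir451a: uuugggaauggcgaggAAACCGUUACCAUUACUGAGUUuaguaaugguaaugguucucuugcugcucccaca
One primary transcript therefore holds 3 of the 4 members, and both arms of miR-144 come from a single precursor.

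Depth set what could be seen of each member. Blood libraries held between 1156407 and 2340177 counts, of which between 70470 and 315003 were left once miR-486-5p was set aside. Lung libraries held between 8132 and 3807051 counts. Among the lung libraries 2 were far shallower than the rest, 15 Gy 3 weeks replicate 3 with 8132 counts and 0 Gy 1 week replicate 3 with 11621 counts, and results that rest on them are given with and without them. Levels are given as the percent of all counts of a library or, for rarer members, as CPM (counts per 1000000 counts of the library), and in blood the total is mostly miR-486-5p. Exact binomial 95% intervals (Clopper-Pearson) reached at most 0.0675 percentage points either side of the miR-486-5p share in blood. For the arms of miR-144 the widest interval in blood was 37.0% of the value on either side for miR-144-3p and 36.4% for miR-144-5p. These intervals cover counting error only, since PCR copies are not independent molecules.

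The identity of the tissues was checked with lists of miRNAs known from other cells, summed as CPM of the counts without miR-486-5p. The 8 listed epithelial miRNAs, such as the miR-200 family, reached 58.1 to 241 in blood libraries and 4638 to 8531 in lung libraries of ordinary depth. The smooth muscle pair miR-143-3p and miR-145-5p reached 940 to 2639 in blood and 56327 to 187000 in lung. Of the 4 listed heart and skeletal muscle miRNAs, miR-133a-3p had 2 to 31 counts in blood libraries and miR-1-3p 0 to 7. The other two, miR-208a-5p and miR-499-5p, were at 0 in every blood library, and miR-208a-5p was at 0 in every lung library as well. Leukocyte miRNAs summed to 805 to 2696 in lung of ordinary depth.

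miR-486-5p was the most abundant of the 459 entries with a rat name in all 18 blood libraries. miR-451-5p ranked between 2 and 13 in blood with a median of 8. The arms of miR-144 ranked lower, miR-144-3p between 26 and 62 and miR-144-5p between 24 and 62. A gap of more than an order of magnitude therefore separated miR-486-5p from miR-451-5p in every blood library, and a further one separated miR-451-5p from most values of the miR-144 arms.

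The share of miR-486-5p among all counts in blood was 89.7%, 93.7% and 94.2% in the 3 libraries of 15 Gy at 1 week. It was 83.6%, 85.5% and 84.6% at 2 weeks, 92.3%, 84.8% and 90.7% at 3 weeks, and 86.3%, 83.3% and 94.2% at 4 weeks after 15 Gy. In unirradiated blood it was 89.0%, 91.9% and 95.9% at 1 week and 92.2%, 90.3% and 90.9% at 4 weeks. All 3 libraries taken 2 weeks after 15 Gy lay below all 6 unirradiated libraries. By the median of each group the order ran from 15 Gy 1 week over 0 Gy 1 week, 0 Gy 4 weeks, 15 Gy 3 weeks and 15 Gy 4 weeks to 15 Gy 2 weeks at the low end, and the libraries of neighbours overlapped in 5 of 5 steps. Over all weeks the share averaged 88.6% ± 4.34 (SD, n = 12) in irradiated blood and 91.7% ± 2.37 (SD, n = 6) in unirradiated blood. The difference of -3.12 percentage points did not pass a two-sided exact permutation test over the 18564 arrangements of the libraries (p = 0.121, adjusted over the 2 tissues p = 0.243).

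miR-451-5p, a brake on several growth and stress pathways of the maturing red cell, stood at 2143, 1409 and 1537 CPM in blood at 1 week after 15 Gy. It stood at 11344, 5902 and 5574 CPM at 2 weeks, at 4305, 6423 and 6254 CPM at 3 weeks, and at 5106, 17463 and 1693 CPM at 4 weeks after 15 Gy. In unirradiated blood it stood at 3175, 2581 and 461 CPM at 1 week and at 3459, 2987 and 1784 CPM at 4 weeks. At 2 and at 3 weeks every irradiated library lay above every unirradiated one on this scale. Among irradiated blood from 2 weeks on, 15 Gy at 4 weeks held both the highest and the lowest library, 10.3-fold apart, while those of 15 Gy at 2 weeks spread 2.03-fold. By median the order ran from 15 Gy 3 weeks over 15 Gy 2 weeks, 15 Gy 4 weeks, 0 Gy 4 weeks and 0 Gy 1 week to 15 Gy 1 week, and neighbours overlapped in 5 of 5 steps.

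miR-144-3p is the arm of miR-144 whose best known target is the regulator of the antioxidant response NRF2. In irradiated blood it stood at 54.3, 43.7 and 56.3 CPM at 1 week, at 405, 240.0 and 352 CPM at 2 weeks, at 133, 149 and 114 CPM at 3 weeks, and at 78.0, 596 and 18.1 CPM at 4 weeks. In unirradiated blood it stood at 56.8, 33.6 and 63.2 CPM at 1 week and at 135, 74.4 and 78.4 CPM at 4 weeks. The 3 libraries of 15 Gy at 2 weeks lay above those of every group but 15 Gy at 4 weeks, whose replicate 2 was the highest of all 18. On this scale it was the only member in blood with a break between neighbours in the order of medians, in 1 of 5 steps. The break lay between 15 Gy 2 weeks and 15 Gy 3 weeks next to it. Below these came 0 Gy 4 weeks, 15 Gy 4 weeks, 0 Gy 1 week and 15 Gy 1 week. On CPM scaled by the trimmed mean of M values, used below, neighbours overlapped in 5 of 5 steps.

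miR-144-5p, the opposite arm of the same hairpin, stood at 99.97, 44.5 and 19.5 CPM in blood at 1 week after 15 Gy. The later irradiated groups had 673, 401 and 350.4 CPM at 2 weeks, 156, 207 and 101 CPM at 3 weeks, and 156, 665 and 18.6 CPM at 4 weeks. Unirradiated blood had 108, 93.0 and 36.5 CPM at 1 week and 131, 96.6 and 52.0 CPM at 4 weeks. As for the other arm, all libraries of 15 Gy at 2 weeks lay above all unirradiated libraries, and 15 Gy at 4 weeks spread widest, 35.6-fold for miR-144-5p and 33.0-fold for miR-144-3p. Replicate 2 of that group was high and replicate 3 low in miR-451-5p and in both arms of miR-144, and their order was the opposite in miR-486-5p.

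**Figure D1:**
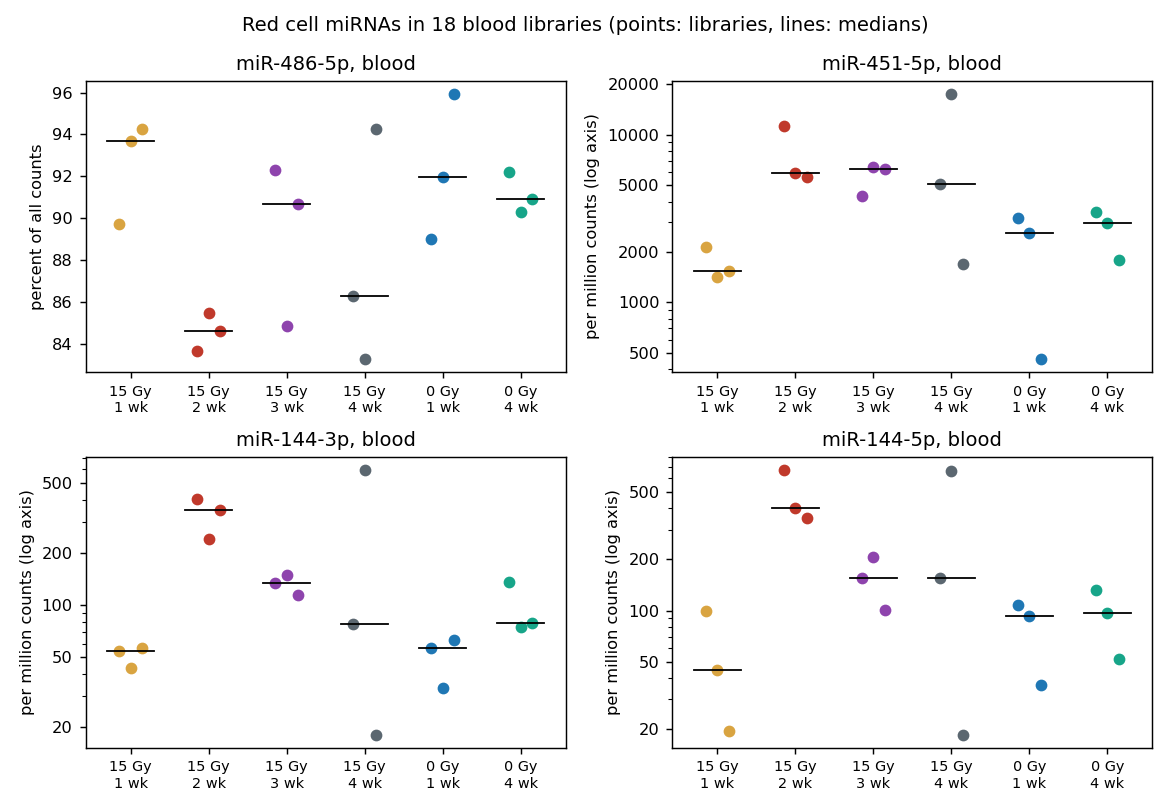
Levels of the 4 members in the 18 blood libraries by group, miR-486-5p as percent of all counts on a linear axis that does not start at 0 and the other members as CPM on log axes; points are libraries and lines are medians of 3. The 15 Gy 2 weeks libraries lie at 83.6% to 85.5% for miR-486-5p, below the 0 Gy libraries, and at 240.0 to 405 CPM for miR-144-3p, above them.

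The shares must be read against the rest of the library. At 2 weeks the shares of 15 Gy and 0 Gy 1 week blood did not overlap for 4 of 4 members, 3 above and 1 below, and they did not overlap for 59.5% of the 289 miRNAs tested, 171 above and 1 below. Set against both unirradiated groups the background was 42.9%. The entry below was miR-486-5p itself, and a lower share of it leaves more of the library to every other RNA. On CPM scaled by the trimmed mean of M values (TMM), which sets the bulk of the miRNAs equal between libraries, 3 of 4 members did not overlap against 0 Gy 1 week, beside 21.1% of all miRNAs, and the same 3 did not overlap against both unirradiated groups, beside 10.7%. miR-486-5p lay below and both arms of miR-144 above, while miR-451-5p overlapped. At 3 weeks only miR-451-5p did not overlap, above the unirradiated libraries on either scale. The background there was 18.7% of shares and 27.3% of TMM values against 0 Gy 4 weeks, and 3.46% of shares and 10% of TMM values against both unirradiated groups.

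In the test across all miRNAs, edgeR's quasi-likelihood fit of the counts after TMM, 0 of 4 members passed a Benjamini-Hochberg adjusted p of 0.05 at 2 weeks against 0 Gy 1 week, beside 0.346% of the 289 miRNAs tested. The log2 fold change of miR-486-5p was -1.40 (SE 0.49, adjusted p = 0.218). That of miR-451-5p was 0.83 (SE 0.47, adjusted p = 0.473). The arms of miR-144 had log2 fold changes of 1.37 for miR-144-3p (SE 0.64, adjusted p = 0.411) and 1.46 for miR-144-5p (SE 0.64, adjusted p = 0.378). Before adjustment 3 of 4 members, all but miR-451-5p, had p under 0.05 in edgeR, beside 11.8% of all miRNAs (13 up and 21 down). This set changed with the 0 Gy 1 week library left out. Without replicate 3 only miR-144-3p stayed under 0.05 (edgeR, unadjusted p = 0.0175), and the log2 fold change of miR-451-5p was 0.41. Without replicate 1 or replicate 2 miR-486-5p stayed under 0.05, but neither arm of miR-144 did (edgeR, unadjusted p of 0.062 to 0.204). miR-451-5p was at 0.0488 without replicate 2. With all libraries DESeq2 called 0 of 4, beside 3 of the 289 miRNAs, with 3 members under 0.05 unadjusted. With library totals in place of TMM the log2 fold change was -0.13 for miR-486-5p, 1.88 for miR-451-5p, 2.70 for miR-144-3p and 2.58 for miR-144-5p, while the median of all miRNAs tested moved by 1.11, so the size of each change depended on the scale. Relative to the median of all miRNAs the values stayed close together over TMM, RLE size factors, library totals, totals without miR-486-5p and counts of miR-191a-5p. They ran from -1.53 to -1.29 for miR-486-5p, from 0.71 to 0.87 for miR-451-5p, from 1.23 to 1.53 for miR-144-3p and from 1.40 to 1.44 for miR-144-5p. In the study's RT-qPCR the fall of miR-486-5p in blood at 2 weeks was not borne out, while both arms of miR-144 were increased.

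At the other weeks 0 of 4 members were called in blood, and 0 of 4 had an unadjusted p under 0.05 in edgeR or a call in DESeq2. This held for 15 Gy 1 week against 0 Gy 1 week (0.346% of all miRNAs called by edgeR, 6 of 289 by DESeq2). It held for 15 Gy 3 weeks and 15 Gy 4 weeks against 0 Gy 4 weeks (0% by edgeR and 4 by DESeq2 in either). It also held for 0 Gy 4 weeks against 0 Gy 1 week (0.346% by edgeR, 2 by DESeq2). The nearest to the threshold was miR-451-5p at 3 weeks, with a log2 fold change of 0.84 (SE 0.47, edgeR, Benjamini-Hochberg adjusted p = 0.399). At 4 weeks it was 0.70 (SE 0.47, edgeR, adjusted p = 0.775). Over all 12 irradiated and 6 unirradiated blood libraries 0 of 4 members were called, beside 1.04% of all miRNAs by edgeR and 13 of 289 by DESeq2. Of the members 0 of 4 had an unadjusted p under 0.05 in edgeR, beside 16.3% of all miRNAs. The log2 fold changes there were -0.41 (SE 0.29) for miR-486-5p, 0.56 (SE 0.29) for miR-451-5p, 0.46 (SE 0.39) for miR-144-3p and 0.47 (SE 0.39) for miR-144-5p. These comparisons share their unirradiated libraries, and fewer cells of a type and less RNA per cell cannot be told apart in whole blood or in whole lung. The paper's blood counts showed fewer white cells at 1 week, recovered by 4 weeks, and fewer red cells by 2 weeks after irradiation. The part of these cell numbers in the values of the members was not tested.

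**Figure D2:**
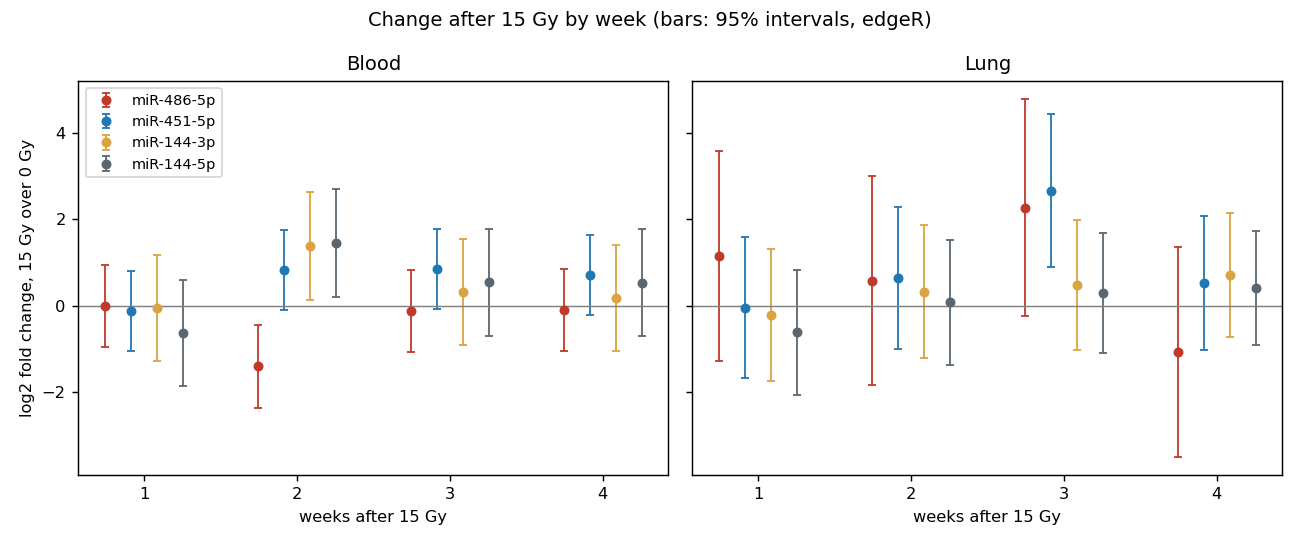
Log2 fold changes of the 4 members after 15 Gy over 0 Gy by week in blood and in lung (1 and 2 weeks against 0 Gy 1 week, 3 and 4 weeks against 0 Gy 4 weeks), with 95% intervals from edgeR. In blood at 2 weeks miR-486-5p lies at -1.40 and the arms of miR-144 at 1.37 and 1.46, and at the other weeks the blood intervals of all members include 0.

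The counts of the members did not keep a fixed ratio to one another. In blood miR-486-5p outnumbered miR-451-5p by 419, 665 and 613 to 1 at 1 week after 15 Gy, by 73.7, 145 and 152 to 1 at 2 weeks, by 214, 132 and 145 to 1 at 3 weeks, and by 169, 47.7 and 557 to 1 at 4 weeks. In unirradiated blood the ratio was 280, 356 and 2082 at 1 week and 266, 302 and 509 at 4 weeks. Every library of 15 Gy at 2 and at 3 weeks lay below every unirradiated one, and the libraries of 15 Gy at 1 and 4 weeks overlapped with them. Such a gap to both unirradiated groups was common at 2 weeks, where 46.5% of the 288 other miRNAs showed it in their ratio to miR-486-5p, and rarer at 3 weeks, at 3.82%. In the ratio to miR-451-5p it was found for 10.1% of miRNAs at 2 weeks (29.9% against 0 Gy 1 week alone) and 28.8% at 3 weeks. Over the 18 blood libraries the highest ratio was 43.6 times the lowest, and its log2 values had an SD of 1.28.

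**Figure D3:**
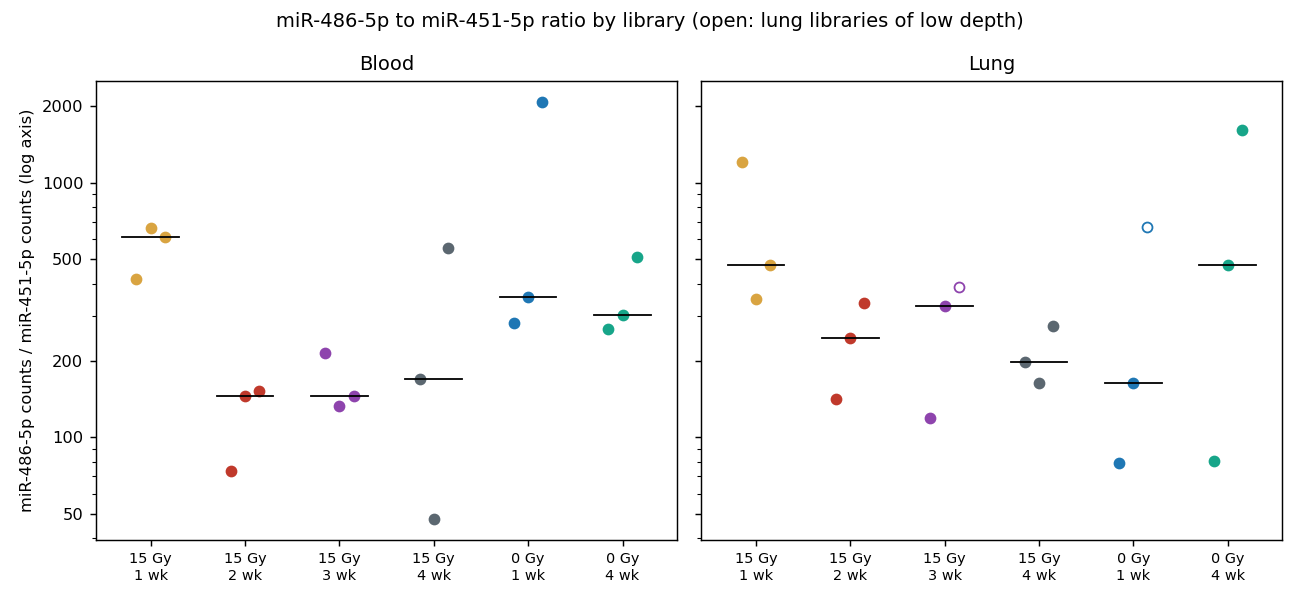
Counts of miR-486-5p over counts of miR-451-5p in each library, blood left and lung right, on a log axis; lines are medians of 3 and open points are the 2 lung libraries of low depth. In blood the 15 Gy 2 weeks and 15 Gy 3 weeks libraries lie between 73.7 and 214, below the 266 to 2082 of the 0 Gy libraries.

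Over miR-144-3p the count of miR-486-5p stood at a ratio of 2067, 3560 and 2402 in blood at 2 weeks after 15 Gy, against 15663, 27365 and 15184.5 in 0 Gy 1 week blood. Its ratio to miR-144-5p was 1243, 2131 and 2414 in 15 Gy 2 weeks blood, against 8201, 9889 and 26272 in 0 Gy 1 week blood. The groups did not overlap in either ratio, and the same held for 63.5% of all 288 miRNAs in their ratio to miR-486-5p. Tested across all miRNAs with the count of miR-486-5p as the scale of each library, the log2 change of the ratio to it at 2 weeks was 1.98 for miR-451-5p (SE 0.76), 2.83 for miR-144-3p (SE 0.88) and 2.69 for miR-144-5p (SE 0.97). Of these 0 of 3 were called by edgeR (adjusted p of 0.116 to 0.117, beside 0.347% of the 288 miRNAs tested), though 3 of 3 had an unadjusted p under 0.05, as did 34.4% of all miRNAs, 99 upward and 0 downward. The unadjusted result depended on 0 Gy 1 week replicate 3. Without it only miR-144-3p stayed under 0.05 (edgeR, unadjusted p = 0.0148). miR-451-5p was then at 0.0634 and miR-144-5p at 0.0545. Without replicate 1 or replicate 2 of that group 3 of 3 stayed under 0.05. The median of all 288 miRNAs on that scale was 1.28. In another published copy of the counts 0 Gy 1 week replicate 1 and 15 Gy 1 week replicate 2 are exchanged. With them exchanged 3 of 3 ratios were called at 2 weeks, at 2.50 for miR-451-5p, 2.99 for miR-144-3p and 3.17 for miR-144-5p, but so were 36.1% of all miRNAs, 104 of 288, all upward. Over all weeks 0 of 3 were called (background 0.347%) and 2 of 3, miR-451-5p and miR-144-3p, had an unadjusted p under 0.05 in edgeR, beside 18.4% of all miRNAs (48 up and 5 down).

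With the count of miR-451-5p as the scale, miR-486-5p changed by -2.88 at 2 weeks (SE 0.85, edgeR, Benjamini-Hochberg adjusted p = 0.122, background 0.347%). Over all weeks it changed by -1.29 (SE 0.47, edgeR, adjusted p = 0.0789), with 0 of 3 members called beside 2.08% of all miRNAs, and 1 of 3 with an unadjusted p under 0.05, beside 33% of all miRNAs (1 up and 94 down). This ratio passed, at -1.60 to -1.48, with those blood libraries exchanged and when 0 Gy 1 week replicate 1, 0 Gy 1 week replicate 2 or 15 Gy 4 weeks replicate 3 was left out. In these fits many other miRNAs passed with it, 24.3% with the exchange and 19.2%, 21.4% and 16.6% with the 3 libraries left out in that order, so the calls are not particular to miR-486-5p. Without 0 Gy 1 week replicate 3, the library with the least miR-451-5p, it was -0.54 (edgeR, adjusted p = 0.612). The arms of miR-144 against miR-451-5p at 2 weeks had log2 changes of -0.25 for miR-144-3p and 0.36 for miR-144-5p, neither with an unadjusted p under 0.05 in edgeR. The 2-week values also depended on 0 Gy 1 week replicate 3. Without it miR-144-3p was at 1.59 (edgeR, unadjusted p = 0.00951, adjusted p = 0.578) and miR-144-5p at 0.85 (adjusted p = 0.946). On the same scale miR-486-5p was then at -1.37 at 2 weeks (edgeR, adjusted p = 0.946). Among the other weeks, 0 of 3 ratios were called on either scale (background 0.347% at 1 week and between the unirradiated groups, 0% at 3 and 4 weeks). The single unadjusted p under 0.05 among them was that of miR-451-5p over miR-486-5p at 4 weeks, a log2 change of 1.67 (SE 0.75, edgeR, adjusted p = 0.490), beside 5.9% of all miRNAs.

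Members of the shared transcript kept closer to one another than to miR-486-5p. Over the 18 blood libraries the SD of the log2 ratio was 0.77 for miR-451-5p and miR-144-5p, 0.86 for miR-451-5p and miR-144-3p and 0.72 for the arms of miR-144. With miR-486-5p in the pair it was 1.28 for miR-451-5p, 1.36 for miR-144-3p and 1.58 for miR-144-5p. The pairs share their libraries and depth, so these are descriptions. Such closeness was not particular to the shared transcript. The known miRNA of highest Spearman's rho with each of the 3 had a smaller SD. It was 0.55 for miR-101a-3p and miR-451-5p, 0.34 for miR-142-5p and miR-144-3p and 0.41 for miR-301a-3p and miR-144-5p. The ratio of miR-451-5p to miR-144-5p was 16.9, 14.7 and 15.9 in 15 Gy 2 weeks blood, against 29.3, 27.8 and 12.6 in 0 Gy 1 week blood and 26.3, 30.9 and 34.3 in 0 Gy 4 weeks blood. The ratio of miR-144-5p to miR-144-3p ran from 0.346 to 2.77 in blood, so neither arm was always the more abundant.

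**Figure D4:**
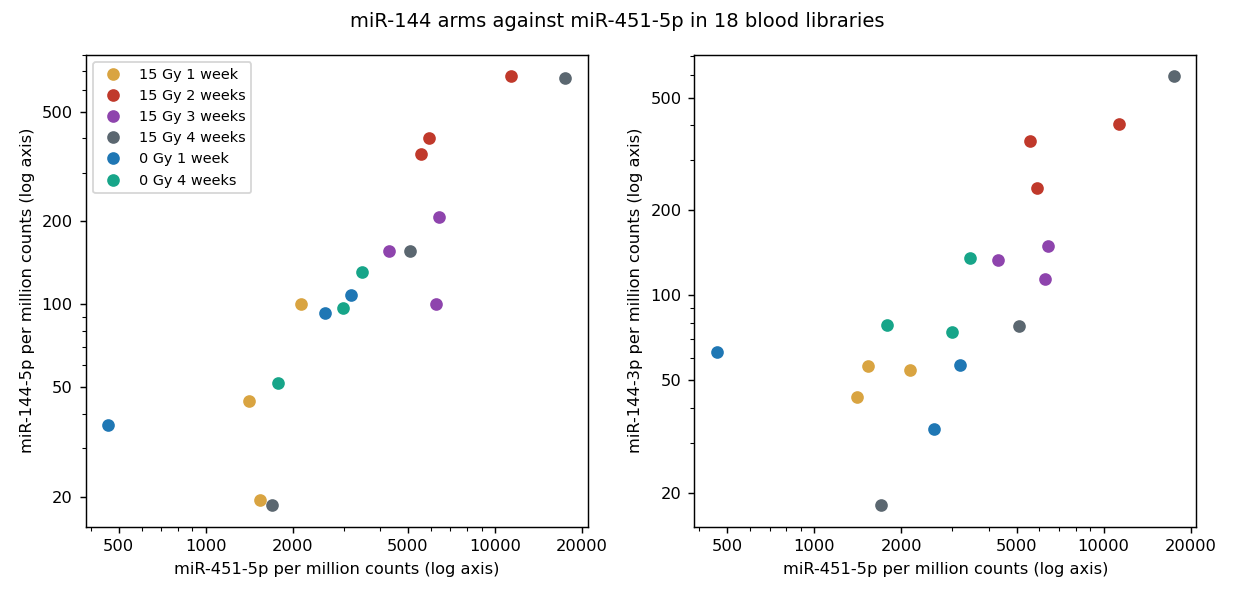
Levels of miR-144-5p (left) and miR-144-3p (right) against miR-451-5p in the 18 blood libraries, as CPM on log axes, coloured by group. The 15 Gy 2 weeks libraries and replicate 2 of 15 Gy 4 weeks lie at the upper right, with miR-144-5p at 350.4 to 673 CPM, and replicate 3 of 0 Gy 1 week lies at the far left with miR-451-5p at 461 CPM.

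Other entries numbered miR-451 or miR-486 were rare. The passenger strand miR-451-3p had 10 to 57 counts in blood libraries and 0 to 5 in lung libraries, and miR-451-5p outnumbered it 72.3 to 948 times in blood. The mouse entry mmu-miR-451b had 10 to 60 counts in blood, close to those of miR-451-3p library by library. Whether both count the same reads was not tested. The opposite strand of miR-486 had 8 to 173 counts in blood and 0 to 36 in lung. At 2 weeks in blood the log2 fold changes were -0.15 for miR-451-3p, -0.03 for mmu-miR-451b and -1.65 for miR-486-3p (edgeR, Benjamini-Hochberg adjusted p = 0.469 for the last of these).

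Among 9 further miRNAs known from red cells or their precursors, 0 were called at 2 weeks in blood, beside 0.346% of all miRNAs tested. Of the 9, 1 had an unadjusted p under 0.05 in edgeR, beside 11.8% of all miRNAs. This 1 was miR-92a-3p, a member of the growth-promoting miR-17 family of clusters, at -1.02 (SE 0.35, adjusted p = 0.218), followed by miR-25-3p at -0.51. Their median log2 fold change was 0.08, beside 0.05 for all miRNAs tested. Their summed level was 168814 to 222799 CPM of the counts without miR-486-5p in 15 Gy 2 weeks blood, against 267548 to 289187 in 0 Gy 1 week blood, without overlap. In this comparison 21.1% of single miRNAs did not overlap either on TMM values, and 59.5% on shares of all counts. Neither of these is the scale of the sum. The sum is mostly miR-92a-3p, miR-16-5p and miR-25-3p, with median counts of 21751, 14639 and 7514.5 over the blood libraries. Of the 9 miRNAs 5 had a positive log2 fold change, so the sum does not speak for each of them. Leukocyte miRNAs summed to 3891 to 6975 in 15 Gy 2 weeks blood and to 1741 to 5265 in 0 Gy 1 week blood, so these groups overlapped, and 6 of 6 of them were detected in either. Their part in the values of the members was not tested. miR-191a-5p, which the study used as the reference of its RT-qPCR, changed by -0.07 in blood at 2 weeks.

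The known miRNAs whose levels ran most like those of each member in blood were taken by Spearman's rho over the 18 libraries, after TMM, among 69 candidates. For miR-486-5p these were miR-143-3p at 0.942, miR-10a-5p at 0.835 and miR-99b-5p at 0.825. For miR-451-5p they were miR-101a-3p and miR-19b-3p at 0.878 each and miR-301a-3p at 0.827. For miR-144-3p they were miR-142-5p at 0.932, miR-142-3p at 0.773 and miR-101a-3p at 0.645, and for miR-144-5p they were miR-301a-3p at 0.926, miR-142-3p at 0.903 and miR-101a-3p at 0.889. The miRNAs nearest the miR-144 arms thus included both arms of the leukocyte miR-142. The points share library, depth and scaling factor. Several of these miRNAs are also poor in G and C, at 33.3% for miR-101a-3p and miR-142-5p and 34.8% for miR-142-3p.

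In lung the members were far less abundant. miR-486-5p made up 5.65%, 2.81% and 2.78% of counts in lung at 1 week after 15 Gy, 1.05%, 2.03% and 4.07% at 2 weeks, 1.09%, 2.16% and 48.1% at 3 weeks, and 1.41%, 1.37% and 2.64% at 4 weeks. In unirradiated lung it made up 0.693%, 1.05% and 5.79% at 1 week and 0.712%, 2.38% and 4.24% at 4 weeks. The groups overlapped, neighbours in the order of medians in 5 of 5 steps for each of the 4 members. The 48.1% came from the library with 8132 counts, where 3911 of them were miR-486-5p (95% interval 47.0% to 49.2%), and the other shallow library, 0 Gy 1 week replicate 3, held 673 among 11621. miR-486-5p ranked between 1 and 17 in lung libraries, with a median of 4.5.

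miR-451-5p in lung stood at 46.9, 80.4 and 58.3 CPM at 1 week after 15 Gy, at 73.8, 82.3 and 121 CPM at 2 weeks, at 91.7, 65.7 and 1229.7 CPM at 3 weeks, and at 71.4, 83.8 and 96.9 CPM at 4 weeks. In unirradiated lung it stood at 87.9, 64.2 and 86.1 CPM at 1 week and at 88.5, 50.1 and 26.2 CPM at 4 weeks. The value of 1229.7 rests on 10 counts of the shallow 15 Gy 3 weeks library, and 1 count was seen in the shallow 0 Gy 1 week library. Apart from those the levels stayed within a narrow band of 26.2 to 121 CPM. miR-451-5p ranked between 36 and 130 in lung.

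The arms of miR-144 were at the edge of detection in lung. miR-144-3p stood at 3.35, 21.5 and 16.6 CPM at 1 week after 15 Gy, at 20.2, 27.4 and 4.17 at 2 weeks, at 13.4 and 23.0 in the deeper libraries of 3 weeks and at 15.3, 10.2 and 34.9 at 4 weeks, against 21.7 and 15.5 in the deeper libraries of 0 Gy 1 week and 24.2, 4.47 and 4.16 in those of 0 Gy 4 weeks. miR-144-5p reached 0.671 to 19.4 CPM in irradiated lung of ordinary depth and 3.57 to 17.6 CPM in unirradiated lung of ordinary depth. The shallow libraries had 0 counts of either arm, which, at a limit of 3 counts, allows up to 369 CPM in 15 Gy 3 weeks replicate 3 and up to 258 CPM in 0 Gy 1 week replicate 3. Counting alone left an interval of 55.5% of the value on either side for miR-144-3p and 64.5% for miR-144-5p, as medians over the lung libraries.

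Between irradiated and unirradiated lung 0 of 4 members were called by edgeR in any week or over all weeks, and 0% of the 499 miRNAs tested were called in each of these comparisons. One unadjusted p under 0.05 occurred, for miR-451-5p at 3 weeks, with a log2 fold change of 2.66 (SE 0.90, edgeR, Benjamini-Hochberg adjusted p = 0.574), beside 7.82% of all miRNAs. It was 0.25 with the low-depth libraries left out. The log2 fold change of miR-486-5p in that comparison was 2.26 and turned to -1.54 without 15 Gy 3 weeks replicate 3. DESeq2 called 0 of 4 in each lung comparison, beside 4 to 10 of the 499 miRNAs, with 2 members at an unadjusted p under 0.05 at 3 weeks. The share of miR-486-5p averaged 6.26% ± 13.2 (SD, n = 12) in irradiated lung and 2.48% ± 2.12 (SD, n = 6) in unirradiated lung, with an exact permutation p of 0.675. Without the shallow libraries it was 2.46% ± 1.39 (SD, n = 11) in irradiated lung and 1.81% ± 1.52 (SD, n = 5) in unirradiated lung, with an exact permutation p of 0.421.

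In lung the count of miR-486-5p over that of miR-451-5p was 1204, 349.9 and 476 at 1 week after 15 Gy, 142, 246 and 336 at 2 weeks, 119, 329 and 391 at 3 weeks, and 198, 164 and 273 at 4 weeks, the 391 being from the shallow library. In unirradiated lung the same ratio was 78.8, 164 and, in the shallow library, 673 at 1 week, and 80.4, 474 and 1621 at 4 weeks. The lung ratios covered much the same range as those of blood, but the libraries of unirradiated lung alone spread from 78.8 to 1621. Among ratios tested in lung by edgeR 0 of 3 were called on either scale in each comparison, and 0 had an unadjusted p under 0.05. The background was 0.201% for the ratio to miR-486-5p over all weeks and 0% in the other lung comparisons of ratios. Without the shallow libraries 0 of 3 were called in each as well (background 0%). Unadjusted p under 0.05 then occurred for miR-451-5p over miR-486-5p at 1 week (log2 change -2.29, beside 39.5% of all miRNAs), for miR-486-5p over miR-451-5p at 1 week (2.48, beside 11.7%) and for miR-486-5p over miR-451-5p between the unirradiated groups (2.57, beside 5.57%).

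Blood and lung differed in every member. In unirradiated blood the median was 91.4% of counts for miR-486-5p, against 1.05% in unirradiated lung of ordinary depth, 86.8 times as much. For miR-451-5p it was 2784 CPM in blood and 64.2 in lung, 43.3 times as much. The arms of miR-144 differed less, with 68.8 CPM in blood against 15.5 in lung for miR-144-3p (4.42 times) and 94.8 CPM in blood against 9.43 in lung for miR-144-5p (10.0 times). In irradiated rats the same order of tissues held, with miR-451-5p at 5340 CPM in blood against 80.4 in lung and miR-486-5p at 88.0% in blood against 2.16% in lung.

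By edgeR across the 576 miRNAs tested in both tissues, 4 of 4 members were higher in unirradiated blood than in unirradiated lung after Benjamini-Hochberg adjustment, beside 75% of all miRNAs that were called in one direction or the other. The log2 fold changes of blood over lung were 7.83 for miR-486-5p (SE 0.87, adjusted p = 9.57e-09), 7.86 for miR-451-5p (SE 0.62, adjusted p = 1.71e-11), 5.14 for miR-144-3p (SE 0.64, adjusted p = 6.66e-08) and 5.73 for miR-144-5p (SE 0.64, adjusted p = 1.1e-08). With the shallow lung libraries left out 4 of 4 were called beside 71.9% of all miRNAs, at 8.47 for miR-486-5p, 7.83 for miR-451-5p, 5.05 for miR-144-3p and 5.67 for miR-144-5p. TMM called 146 miRNAs higher and 286 lower in blood, library totals 54 higher and 419 lower, and counts of miR-191a-5p 45 higher and 428 lower, so the split of calls followed the scale. RLE size factors gave 186 higher and 246 lower, totals without miR-486-5p gave 188 higher and 237 lower, and DESeq2 gave 185 higher and 217 lower. The members stayed higher in blood under each of these, but by less under library totals and miR-191a-5p. miR-486-5p was at 5.21 with library totals and 4.40 when scaled to miR-191a-5p, miR-451-5p at 5.19 and 4.78, miR-144-3p at 2.33 and 2.14 and miR-144-5p at 3.03 and 2.73 on the same scales, while the median of all miRNAs moved by -2.48 under library totals and by -2.78 under miR-191a-5p.

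The other red cell miRNAs were also higher in blood, 9 of 9 called, beside 146 of the 576 miRNAs tested that were called higher there. Their log2 fold changes were 2.62 to 6.78 with a median of 4.21. The passenger strand miR-451-3p had 6.78, miR-185-5p 4.96, miR-16-5p, which restrains the cell cycle, 4.44, and miR-25-3p 4.40. The members' change at 2 weeks was set against that of lung in an interaction term. The blood change minus the lung change was -1.46 for miR-486-5p (95% interval -3.99 to 1.08), 0.58 for miR-451-5p (-1.26 to 2.42), 1.37 for miR-144-3p (-0.78 to 3.53) and 1.75 for miR-144-5p (-0.38 to 3.88). By edgeR 0 of 4 were called, beside 0.174% of all miRNAs, with Benjamini-Hochberg adjusted p of 0.796 and above. Of the members 0 of 4 had an unadjusted p under 0.05 in edgeR, and DESeq2 called 0 of 4, beside 4 of 576 miRNAs. Without the shallow lung libraries the difference was -2.67 for miR-486-5p (95% interval -4.53 to -0.80), with an unadjusted edgeR p of 0.00981 and a Benjamini-Hochberg adjusted p of 0.473, beside 8.33% of all miRNAs with an unadjusted p under 0.05. It was 0.72 for miR-451-5p, 1.61 for miR-144-3p and 1.94 for miR-144-5p, with 0 of 4 members called (background 0.163%).

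Setting each lung library against the mean of unirradiated blood gives the lung level of a member as a percent of its blood level. Over the 16 lung libraries of ordinary depth the median was 2.28% for miR-486-5p (0.756% to 6.16%) and 3.20% for miR-451-5p (1.09% to 5.03%). It was 21.8% for miR-144-3p (4.55% to 47.4%) and 12.3% for miR-144-5p (0.777% to 22.4%). The members did not give one figure for the same library. In 0 Gy 1 week replicate 1 the 4 percents were 0.756% for miR-486-5p, 3.65% for miR-451-5p, 29.4% for miR-144-3p and 8.36% for miR-144-5p, whereas in 0 Gy 4 weeks replicate 3 they were 4.62% for miR-486-5p, 1.09% for miR-451-5p, 5.65% for miR-144-3p and 4.13% for miR-144-5p. The 3 libraries with most miR-486-5p, at 4.44% to 6.16%, had miR-144-3p at 4.55% to 5.67%, where the median of the 16 was 21.8%. Their miR-144-3p values rest on few counts, 5 in 15 Gy 1 week replicate 1, 7 in 0 Gy 4 weeks replicate 3 and 1 in 15 Gy 2 weeks replicate 3.

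The percent also depended on the total. With miR-486-5p taken out of the totals of both tissues, miR-451-5p in lung was 0.283% of its blood level (0.0982% to 0.454%), miR-144-3p 1.68% (0.365% to 3.68%) and miR-144-5p 1.02% (0.0679% to 1.90%). On all counts the median in irradiated lung (11 libraries) and in unirradiated lung (5 libraries) was 2.36% and 1.15% for miR-486-5p, 3.34% and 2.67% for miR-451-5p, 22.5% and 21.1% for miR-144-3p, and 12.4% and 10.9% for miR-144-5p, with overlap in each. miRNAs of other blood cells moved with the total in the same way. The lymphocyte miR-150-5p was at 1391% on all counts and at 95.4% without miR-486-5p, the myeloid miR-223-3p at 780% on all counts and at 71.2% without it, and miR-142-3p at 105% on all counts and at 8.73% without it. For miR-16-5p, one of the red cell list, the percents were 28.6% on all counts and 2.62% without miR-486-5p. The sources used here do not say whether the lungs were flushed, and the part of residual blood in the lung values was not tested.

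**Figure D5:**
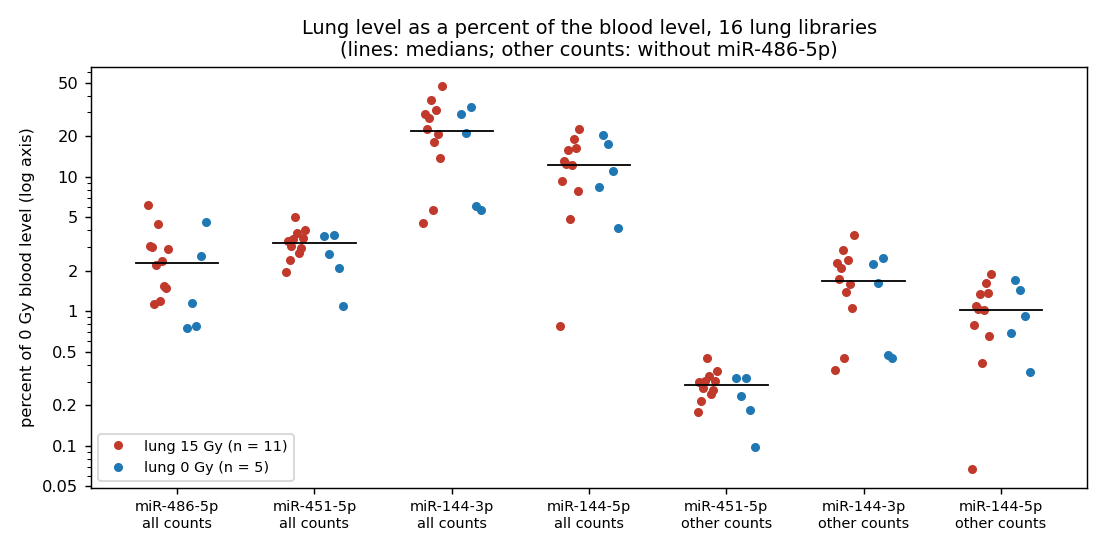
Level of each member in the 16 lung libraries of ordinary depth as a percent of its mean level in unirradiated blood, on a log axis, with shares of all counts on the left and shares of the counts without miR-486-5p on the right; lines are medians over all 16. The medians run from 2.28% for miR-486-5p to 21.8% for miR-144-3p on all counts and from 0.283% to 1.68% without miR-486-5p.

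The miRNAs nearest to each member in lung, over the 16 libraries of ordinary depth and 132 candidates, were others than in blood. For miR-486-5p they were miR-151-3p at a Spearman's rho of 0.932, miR-92b-3p at 0.835 and miR-125b-2-3p at 0.744. For miR-451-5p they were miR-22-3p at 0.797, with miR-145-3p and miR-146a-5p at 0.791 each. The arms of miR-144 had weaker neighbours, miR-872-5p at 0.735 for miR-144-3p and at 0.591 for miR-144-5p. In lung as in blood the quotient of miR-486-5p and miR-451-5p varied more than the ratios within the miR-144 and miR-451 cluster. The SD of the log2 ratio was 1.23 for the former (n = 16). Within the cluster it was 0.95 for miR-451-5p and miR-144-5p, 0.85 for miR-451-5p and miR-144-3p and 0.70 for the arms of miR-144. Such closeness was again not particular to the cluster. The SD was 0.32 for miR-22-3p and miR-451-5p, 0.63 for miR-872-5p and miR-144-3p and 0.73 for miR-872-5p and miR-144-5p. Spearman's rho of miR-451-5p and miR-144-5p was only 0.13 in lung.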

How the data were processed

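The data are small RNA counts of 18 libraries of whole blood and 18 of lung, 3 for each of 6 groups per tissue. The authors size-selected TruSeq small RNA libraries on gels, trimmed reads with Trim Galore 0.2.5, aligned them to rn4 with Bowtie 1.1.1 and assigned them with miRanalyzer, and they deposited raw counts per entry of known, homologous and new miRNAs. Groups and replicate numbers were taken from the labels, and 0 sample columns were left without a sample. Members were matched by name. The members and all lists were chosen with earlier results of these data known.

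The deposited counts were fitted per tissue with edgeR 4.0.16 (R 4.3.3, TMM, filterByExpr, quasi-likelihood test, Benjamini-Hochberg adjustment over all miRNAs tested, threshold 0.05), and blood against lung in one fit of both tissues. 0 Gy 1 week, which the study names as the control of 2 weeks, served 15 Gy at 1 and 2 weeks, and 0 Gy 4 weeks, the nearest in time, served 3 and 4 weeks. Ratios were tested with the log count of one member (plus 0.5 for miR-451-5p where needed) as offset. The SE is the log2 fold change over the root of F. Shares were compared with exact permutation tests. Libraries under 0.1 of the median lung depth (2) were also left out.

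Besides the members, the text names other entries numbered miR-451 or miR-486, miR-191a-5p and marker examples. It also names the listed companion miRNAs past the threshold or else the 2 of smallest p. The 3 known miRNAs of highest Spearman's rho with each member are named too (mean count of at least 50, log2 of TMM CPM plus 1). No new entry ran in a fixed ratio to a member (SD of the log2 ratio under 0.2 in 0 of 56 in blood and 0 of 123 in lung). Alternatives were RLE size factors, library totals, totals without miR-486-5p, miR-191a-5p counts, no filter, DESeq2 1.42.0, known rat miRNAs only, pooled controls, a replicate block, exchange or omission of 2 blood libraries, and each replicate left out. The fits were tested on simulated data. Authors' own comparison columns were not used. Sequences are from RefSeq (GRCr8), whose coordinates differ from the rn4 build of the alignment.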

Additional observations from a re-analysis of the deposited data

Results flagged for a closer look

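Among the 6 unirradiated blood libraries, 0 Gy 1 week replicate 3 stood far from the others in the count of miR-486-5p over that of miR-451-5p, at 2082 against 266 to 509 in the other 5. Its gap to the nearest library took up 0.866 of the range of the group. It held 795 counts of miR-451-5p, where the other unirradiated blood libraries held 3708 to 7080, and miR-486-5p made up 95.9% of its counts, the highest share of the 18 blood libraries. Of the 16 groups of values examined in this way this was the only one to stand out, and chance alone marks about 1 in 20 groups. Every comparison with 0 Gy 1 week blood includes this library.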

How the results depend on the processing

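Of 172 counts of members called and share differences recomputed under other settings, 170 kept their direction and their side of the threshold, as did 213 log2 fold changes with 1 reversed. With each replicate left out 344 such counts and differences kept theirs, 3 moved and 1 reversed, and 215 log2 fold changes kept theirs with 1 reversed. With the 2 blood libraries exchanged, ratios to miR-486-5p called at 2 weeks went to 3 and ratios to miR-451-5p called over all weeks to 1, and that count over all weeks ran from 0 to 1 with each library left out. In lung at 3 weeks the log2 fold change of miR-486-5p was -1.54 without the libraries of low depth and ran from -1.54 to 3.66 with each replicate left out. The lung difference in miR-486-5p share ran from -0.0174 to 4.45 percentage points with each library left out, the lowest without 15 Gy 3 weeks replicate 3. That library holds few counts, and the cause of the other changes was not tested. Same-numbered libraries of different groups of a tissue had a mean correlation of 0.0518 in blood and 0.0832 in lung. Single pairs reached 0.42 in blood. Replicate numbers were therefore not used to pair the groups. A replicate block gave -1.33 for miR-486-5p in blood at 2 weeks (edgeR, adjusted p = 0.174) and changed no call. Blood and lung libraries of the same number were not compared, and the fits of both tissues treat them as independent. The whole-table count of calls in blood also varied with the tool, 1 by edgeR and 3 by DESeq2 at 2 weeks. Depth limits the arms of miR-144 most, in lung above all.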

Other observations

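Across the 127 of 142 known miRNAs tested in blood that have a RefSeq sequence, GC content and the log2 fold change after 15 Gy had a Spearman's rho of -0.516 at 2 weeks, -0.496 at 3 weeks and -0.437 at 4 weeks, against 0.401 at 1 week. In lung at 1 week it was 0.563 over 219 of 243 miRNAs. Genes are not independent replicates, the comparisons share unirradiated libraries, and the measure was chosen after the values were seen. miR-451-5p and both arms of miR-144 are poor in G and C, so they lie on the side of the scale that was higher at 2, 3 and 4 weeks in blood. The part of base composition in their values was not tested.

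In blood the opposite strand of miR-486 was outnumbered by miR-486-5p between 9567 and 202181 times, while in the 14 lung libraries where it had counts the ratio was 1099 to 6482. The other 4 lung libraries had 0 counts of it, so their ratio has no upper limit and the tissues were not compared.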
